A study of Homo sapiens with 3 samples.

Results

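Heat shock proteins and J-domain co-chaperones are the core of the cell's protein folding machinery, and 71 of the 19775 genes measured here belong to them. The members were taken by symbol: the HSPA, HSPB and HSP90 genes, HSPD1, HSPE1 and HSPH1, the DNAJA, DNAJB and DNAJC genes, and BAG1 to BAG6. HSPA5, DNAJB9, antisense genes and pseudogenes were left out, and only probe sets paired with 1 symbol were used. The 71 members were read by 177 probe sets, between 1 and 7 each. Another 13 probe sets pair such a symbol with a second gene and were not used, so the inducible HSP70 genes HSPA1A and HSPA1B, the constitutive HSPA8, and DNAJC25 were not analysed here.

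Expression was measured on Affymetrix HG-U133 Plus 2 arrays in MDA-MB-231, an established human breast cancer line. All cells were kept for 4 h in medium whose serum (10%) had been stripped of steroids with charcoal, and then for 3 h under treatment. The groups were ethanol vehicle (0.1%), estradiol at 1 µM, and ERα17p (a short peptide taken from oestrogen receptor alpha) at 1 µM, with 1 array each. What ERα17p was dissolved in is not stated in the labels. The comparisons ask what either agent changes within hours. With 1 array per group nothing below has a replicate check and no p-value can be given.

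HSP70 proteins bind unfolded stretches of other proteins and release them in a cycle driven by ATP. J-domain proteins bring clients to HSP70 and trigger its ATP hydrolysis, while BAG and HSP110 proteins act as nucleotide exchange factors that reset the cycle. HSP90 takes over part-folded clients, among them steroid hormone receptors, which it holds in a state able to bind hormone. Many of these genes are induced by heat shock factor 1 (HSF1), which binds repeated short units called heat shock elements.

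The deposited log2 values are relative to a reference, set separately for each probe set, that no source describes, so they show differences between arrays and not levels. The labelled cell type could not be checked against its markers for the same reason, and whether a gene was expressed above background is unknown. A gene's value on an array is the median of its probe sets, and a call, higher or lower, needs a difference of at least 1.5-fold, which is 0.585 on the log2 scale. Members spread most widely on the vehicle array, with an SD of 0.424 across the 71 genes against 0.177 under estradiol and 0.180 under ERα17p. Over all probe sets the SDs were 0.494, 0.260 and 0.241. The median differences from vehicle of the labelling spikes (bacterial RNAs added to each sample) were 2.03 for estradiol and 2.04 for ERα17p, and those of the hybridisation spikes were -0.74 and -0.93. For ERα17p minus estradiol the medians were 0.00 for the labelling spikes and -0.15 for the hybridisation spikes. The part of the vehicle array in the differences below was not tested.

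HSF1 binding letters stood near the starts of several members, and these stretches are shown because they hold the longest form of the element among the members. RefSeq promoter windows (GRCh38.p14) were matched by symbol for 63 of the 71 members, and the 250 bases before each start were searched on both strands. A heat shock element of 3 units, which alternate between GAA and TTC with NN between neighbours, was found in 5 of the 63 member genes (7.94%), against 152 of all 27305 genes with a window (0.557%). Of the 11 measured members known as HSF1 targets 4 held it. The 5 genes were the cytosolic HSP90 genes HSP90AA1 and HSP90AB1, the strictly stress-induced HSPA6, the mitochondrial chaperonin HSPD1, and DNAJB6, a J-domain protein that holds back aggregation. Each stretch of 30 bases below runs 5′ to 3′ on the gene's own strand, with the motif in capitals.
HSPA6, chr1:161524458-161524487, plus strand: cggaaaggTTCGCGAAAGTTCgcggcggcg
HSP90AA1, chr14:102087111-102087140, minus strand: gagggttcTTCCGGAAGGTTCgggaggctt
HSP90AB1, chr6:44247770-44247799, plus strand: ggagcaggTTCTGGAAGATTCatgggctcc
HSP90AB1, chr6:44247823-44247852, plus strand: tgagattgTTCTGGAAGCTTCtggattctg
HSPD1, chr2:197500061-197500090, minus strand: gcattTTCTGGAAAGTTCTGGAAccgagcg
DNAJB6, chr7:157336865-157336894, plus strand: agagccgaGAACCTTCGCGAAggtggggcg

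In HSPD1 overlapping matches join into a run of 18 bases, and HSP90AB1 holds a pair of separate matches. That pair lies before an alternative start of HSP90AB1. No heat shock element of 2 or 3 units was found in its windows at chr6:44245944-44246193 and chr6:44246851-44247100, which lie before other starts. The shorter form of 2 units, GAANNTTC or TTCNNGAA, which lies within every longer match, was found in 18 of the 63 members (28.6%) and in 14.0% of all genes. The TATAAA and CCAAT letters were found in 15.9% and 34.9% of the members, against 13% and 37.0% of all genes. A match is a description of these letters and shows no binding in these cells.

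Classical heat shock genes lay on both sides of vehicle on either treated array. Of 14 listed members known as HSF1 targets 11 were measured. Against vehicle, 1 was called higher and 2 lower on the estradiol array, with a median difference of -0.25, and 2 were called higher and 1 lower on the ERα17p array, with a median of -0.15. The medians over all genes were 0.00 in both. Over all genes 10.4% were called higher and 8.25% lower for estradiol, and 9.27% and 8.53% for ERα17p. Without probe sets that may match several transcripts 7 of these genes were left, with 1 called higher and 3 lower for estradiol (median -0.53) and 1 higher and 0 lower for ERα17p (median -0.29), and after quantile normalisation 0 were higher and 1 lower for estradiol. Called on the low side were HSPB1 with both agents and HSPA6 with estradiol, and on the high side HSPA4L with both and HSPE1 with ERα17p. The genes with a heat shock element of 3 units gave HSP90AA1 at -0.40 and -0.27 for estradiol and ERα17p, HSP90AB1 at -0.26 and -0.33, HSPD1 at -0.32 and -0.02, HSPA6 at -0.72 and -0.47, and DNAJB6 at 0.14 and 0.42. Of these 10 differences 1 passed 1.5-fold. DNAJB1, the main cytosolic J-domain partner of stress-induced HSP70, was at -0.25 and -0.36, and BAG3, which links HSP70 to selective autophagy, at -0.22 and -0.15. The 2 probe sets of DNAJB1 went apart, at 0.20 and -0.70 for estradiol and at 0.08 and -0.80 for ERα17p. Both may match several transcripts.

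Across all 71 members, 18 were called on the estradiol array against vehicle, 8 higher and 10 lower. That is 25.4% of the members, beside 18.6% of all genes. On the ERα17p array 19 were called, 11 higher and 8 lower, which is 26.8% beside 17.8% of all genes. Called higher were 11.3% of the members for estradiol and 15.5% for ERα17p, beside 10.4% and 9.27% of all genes. Called lower were 14.1% and 11.3% of the members, beside 8.25% and 8.53% of all genes. The median difference over the members was -0.02 for estradiol and 0.01 for ERα17p, and the median size of a member's difference, whatever its sign, was 0.26 and 0.27, beside 0.25 and 0.24 over all genes. At 2-fold, 6 and 7 members were called (8.45% and 9.86%), beside 5.97% and 5.65% of all genes. The members as a whole were thus centred close to where all genes were, and calls went in both directions. The share called was above that of all genes at both thresholds, and this excess was not tested.

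Both comparisons used the same vehicle array. Called on both treated arrays were 14 members, 8 higher and 6 lower, and none was called in opposite directions. That is 77.8% of the estradiol calls and 73.7% of the ERα17p calls. Among all genes 3680 were called for estradiol, 3521 for ERα17p and 4571 on either array, beside 18, 19 and 23 members. By these counts most of the estradiol calls and most of the ERα17p calls among all genes were shared, as they were for the members. The overlap is therefore not read as particular to the members. In 18 of the 23 members called on either array (78.3%) the vehicle value lay farther from the deposited reference than either treated value, and the same held for 75% of the 4571 genes called on either array among all genes. The plot of values by array shows this as vehicle points at the far end of most lines.

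**Figure D1:**
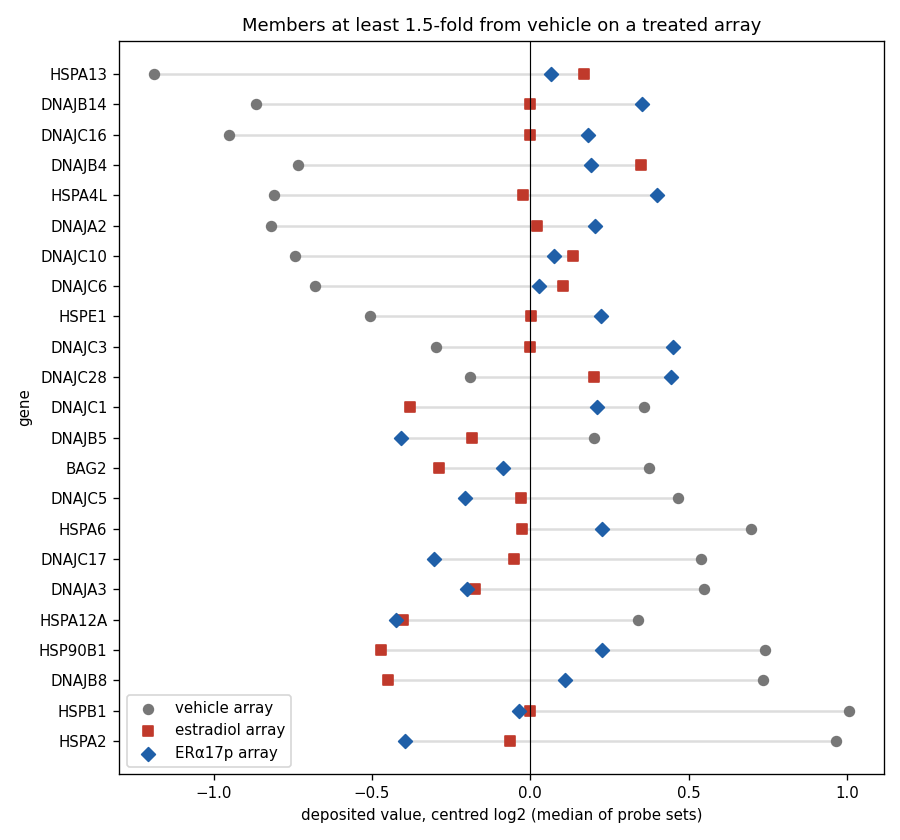
Deposited values (log2 relative to the reference, median of probe sets, x axis) on each of the 3 arrays for the 23 members at least 1.5-fold from vehicle on a treated array (y axis), 1 point per array. HSPA13 has the lowest vehicle value at -1.19 and HSPB1 the highest at 1.01, while the treated values of all 23 lie between -0.47 and 0.45.

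Within the HSP70 family, HSPA13 stood highest and HSPA2 lowest. HSPA13, an atypical HSP70 of the microsomal fraction, had values of -1.19 for vehicle, 0.17 for estradiol and 0.06 for ERα17p. Its differences from vehicle were 1.36 (2.56-fold) and 1.25 (2.38-fold), and its 2 probe sets were close together, at 1.32 and 1.40 for estradiol and at 1.13 and 1.38 for ERα17p. HSPA2, best known from spermatogenesis, had 0.97 under vehicle, -0.06 under estradiol and -0.40 under ERα17p. It was lower by differences of -1.03 and -1.36, from 1 probe set of the kind that may match several transcripts. The vehicle value of HSPA13 lay well below both treated values and that of HSPA2 well above them.

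HSPA12A, a distant member of the family, had 0.34 with vehicle, -0.40 with estradiol and -0.42 with ERα17p. Its differences of -0.74 and -0.76 were the mean of unlike probe sets, at -1.38 and -0.11 for estradiol. HSPA6 had 0.70, -0.03 and 0.23 in the same order, and its probe sets were both lower, at -1.05 and -0.40 for estradiol and -0.77 and -0.17 for ERα17p. The mitochondrial HSP70 gene HSPA9 had 0.00, 0.03 and 0.01 in the same order, with 4 probe sets between -0.32 and 0.45 for estradiol. HSPA1L, the HSP70 gene of the testis, was 0.51 higher with estradiol and at -0.02 with ERα17p, and neither difference was called. HSPA12B and HSPA14 stayed within 0.24 of vehicle on both treated arrays.

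HSPA4L was the only one of the 3 HSP110-type genes to be called. This nucleotide exchange factor had -0.81 for vehicle, -0.02 for estradiol and 0.40 for ERα17p. Its differences from vehicle were 0.79 (1.73-fold) and 1.21 (2.31-fold), and both probe sets were higher in each comparison. After quantile normalisation the estradiol difference was 0.54 and no longer called. Its closest relatives HSPA4 and HSPH1 were within 0.18 of vehicle on both arrays. The gene values of these 2 rest on unlike probe sets: for estradiol those of HSPA4 ran from -0.77 to 0.69 and those of HSPH1 from -1.06 to 0.43.

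All 3 HSP90 genes were below vehicle on both treated arrays, and 1 of the 6 differences was called. The stress-responsive cytosolic form HSP90AA1 had 0.24 under vehicle, -0.16 under estradiol and -0.04 under ERα17p, and the constitutive HSP90AB1 had 0.21, -0.05 and -0.12. All 4 probe sets of HSP90AA1 and all 3 of HSP90AB1 were below vehicle in both comparisons, at differences from -1.14 to -0.06. Without probe sets that may match several transcripts both were called lower for estradiol, HSP90AA1 at -0.70 and HSP90AB1 at -0.68, and neither for ERα17p, at -0.33 and -0.47. HSP90B1, the HSP90 of the endoplasmic reticulum, had 0.74, -0.47 and 0.23, so it was lower by a difference of -1.21 (2.32-fold) with estradiol and at -0.52 with ERα17p. Its 2 probe sets, both of a kind that may match several transcripts, were at -2.17 and -0.26 for estradiol and at -1.38 and 0.35 for ERα17p. Its other 2 probe sets are also paired with a microRNA gene and were not used.

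HSPD1 and HSPE1 encode the mitochondrial chaperonin HSP60 and its lid HSP10, and they lie head to head with their starts 104 bases apart. The stretch between the starts is shown because the genes share it, on the plus strand, in the direction of HSPE1.
HSPD1 to HSPE1, chr2:197500275-197500378: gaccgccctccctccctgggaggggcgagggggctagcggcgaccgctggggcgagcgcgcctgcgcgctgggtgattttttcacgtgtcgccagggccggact

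No heat shock element of 2 or 3 units was found in this stretch, and the element of HSPD1 printed above lies upstream of a second start of that gene. The neighbours did not have like values. HSPE1 had -0.51 for vehicle, 0.00 for estradiol and 0.22 for ERα17p. Its differences from vehicle were 0.51 and, called, 0.73, from 1 probe set that may match several transcripts. HSPD1 had 0.14, -0.17 and 0.12, with differences of -0.32 and -0.02. Its 5 probe sets ran from -1.23 to -0.04 for estradiol and from -0.92 to 0.13 for ERα17p.

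Among the 7 small heat shock proteins, which bind unfolding proteins without ATP, HSPB1 alone was called. HSPB1 (HSP27), a heat-inducible protein classically raised by oestrogen in receptor-positive breast cells, had 1.01 under vehicle, 0.00 under estradiol and -0.04 under ERα17p. Its differences of -1.01 (2.01-fold lower) and -1.04 (2.06-fold lower) were nearly equal, and they rest on 1 probe set, of the kind that may match several transcripts. The 250 bases before its start are shown because they hold a heat shock element of 2 units, in capitals, 182 to 175 bases before the start.
HSPB1, chr7:76302423-76302672, plus strand: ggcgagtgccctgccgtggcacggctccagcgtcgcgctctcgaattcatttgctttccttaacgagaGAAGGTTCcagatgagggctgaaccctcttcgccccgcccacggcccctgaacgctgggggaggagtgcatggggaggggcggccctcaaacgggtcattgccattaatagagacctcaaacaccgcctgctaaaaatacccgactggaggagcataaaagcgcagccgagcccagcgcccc

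HSPB8, the partner of BAG3, was at 0.56 and 0.42, and its 2 probe sets went apart, at 1.71 and -0.58 for estradiol and at 1.5 and -0.65 for ERα17p. HSPB2 was at 0.47 and 0.16. The other small heat shock genes, HSPB3, HSPB6, HSPB7 and HSPB9, differed from vehicle by between -0.13 and 0.27.

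**Figure D2:**
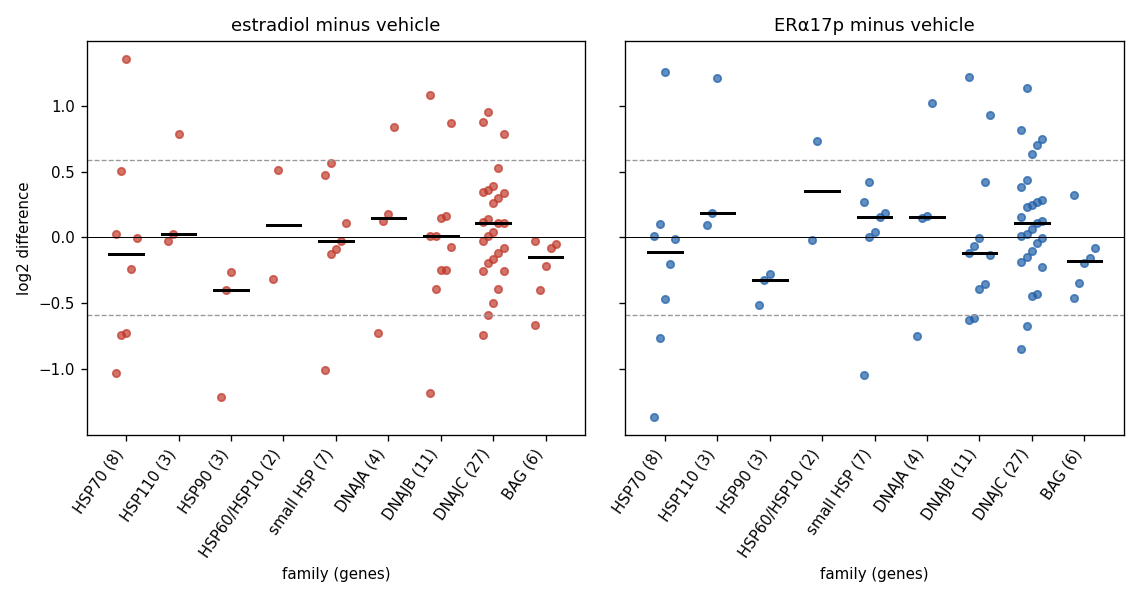
Log2 difference from vehicle (y axis) of each of the 71 members on the estradiol array (left) and the ERα17p array (right), by family (x axis, number of genes in brackets). Points are genes, thick lines are family medians and dashed lines mark 1.5-fold; the HSP90 medians are -0.40 and -0.33, and those of the DNAJC family 0.11 and 0.11.

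The 4 DNAJA genes, which resemble the bacterial DnaJ, split. DNAJA2 had -0.82 for vehicle, 0.02 for estradiol and 0.20 for ERα17p, so it was higher by 0.84 and 1.02, with both probe sets between 0.74 and 1.08. DNAJA3, the mitochondrial form, had 0.55, -0.18 and -0.20 and was lower, at -0.72 and -0.75, with both probe sets between -0.82 and -0.62. Both of these probe sets may match several transcripts. The farnesylated cytosolic DNAJA1 was at 0.13 and 0.16 and DNAJA4 at 0.17 and 0.15. The close relatives DNAJA2 and DNAJA1 thus differed in size, and DNAJA2 and DNAJA3 in direction.

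Of the 11 DNAJB genes, 2 were called higher and 1 lower with estradiol, beside 10.4% and 8.25% of all genes. With ERα17p 2 were higher and 2 lower, beside 9.27% and 8.53%. DNAJB14, a J-domain protein of the endoplasmic reticulum membrane, had -0.87 under vehicle, 0.00 under estradiol and 0.35 under ERα17p, with differences of 0.87 and 1.22 and all 3 probe sets higher. DNAJB4 was 1.08 and 0.93 higher, but this is the middle of a probe set at 1.87 and 1.85 that may match several transcripts and another at 0.29 and 0.01. DNAJB8, a gene best known from testis, had 0.74, -0.45 and 0.11, with differences of -1.18 and -0.63 from 1 probe set. DNAJB5 was at -0.39 and, called, at -0.61. The other 7 members of the family, DNAJB1, DNAJB2, DNAJB6, DNAJB7, DNAJB11, DNAJB12 and DNAJB13, lay between -0.39 and 0.42 in both comparisons.

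The DNAJC genes share only the J domain and are otherwise diverse. Of 27, 3 were called higher and 2 lower with estradiol, beside 10.4% and 8.25% of all genes. With ERα17p 5 were higher and 2 lower, beside 9.27% and 8.53%. DNAJC16, a membrane protein, had -0.95, 0.00 and 0.18 under vehicle, estradiol and ERα17p in turn and was 0.95 and 1.13 higher; 2 of its 3 probe sets were at 0.95 or above in both comparisons, and the third was at -0.14 and -0.02. DNAJC10 (ERdj5), a disulphide reductase of the endoplasmic reticulum, had -0.74, 0.13 and 0.07 and was 0.88 and 0.82 higher, with 3 of 5 probe sets between 0.93 and 1.14 and the other 2 between -0.28 and -0.15. DNAJC6, the neuronal auxilin that helps HSP70 strip clathrin from vesicles, was 0.78 and 0.70 higher, with 1 probe set at 1.49 and 1.44 and the other at 0.07 and -0.03.

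DNAJC3 (p58IPK), which restrains the stress kinase PERK, had -0.30 for vehicle, 0.00 for estradiol and 0.45 for ERα17p. It was at 0.30 with estradiol and called at 0.75 with ERα17p, where its 4 probe sets were all higher, from 0.46 to 1.39. DNAJC28, which has 1 probe set, was at 0.39 and called at 0.63. On the low side, DNAJC17, a J-domain protein of the nucleus, was at -0.59, just past the threshold, and at -0.84, from 1 probe set, and DNAJC5, the cysteine-string protein of secretory vesicles, was at -0.50 and called at -0.67. DNAJC1, an endoplasmic reticulum protein that binds ribosomes, had 0.36, -0.38 and 0.21 and was called with estradiol, at -0.74, but not with ERα17p, at -0.15. The 19 other DNAJC genes had differences from vehicle between -0.44 and 0.53.

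By the median of probe sets all 6 BAG genes were below vehicle on the estradiol array, by between -0.66 and -0.03, and 5 of 6 on the ERα17p array. The medians over all genes were 0.00 in both comparisons. BAG2, an inhibitor of the ubiquitin ligase CHIP, was the one called, at -0.66 with estradiol, and its 3 probe sets did not agree in direction, at -1.99, -0.66 and 1.85. BAG1 was read by probe sets at 1.31, -0.54 and -0.08 for estradiol. BAG4 was at -0.05 with estradiol, although 2 of its 3 probe sets were higher, at 0.14 and 0.39. Its other probe set was at -0.49, so whether BAG4 counts as below vehicle depends on the summary. BAG6, which guards exposed hydrophobic segments, was at -0.40 and -0.34, with 3 probe sets at -0.37 or below in both comparisons and the fourth at 0.00 and 0.38. Without probe sets that may match several transcripts 4 BAG genes were left, and the median turned from -0.15 to 0.13 for estradiol and from -0.17 to 0.38 for ERα17p.

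**Figure D3:**
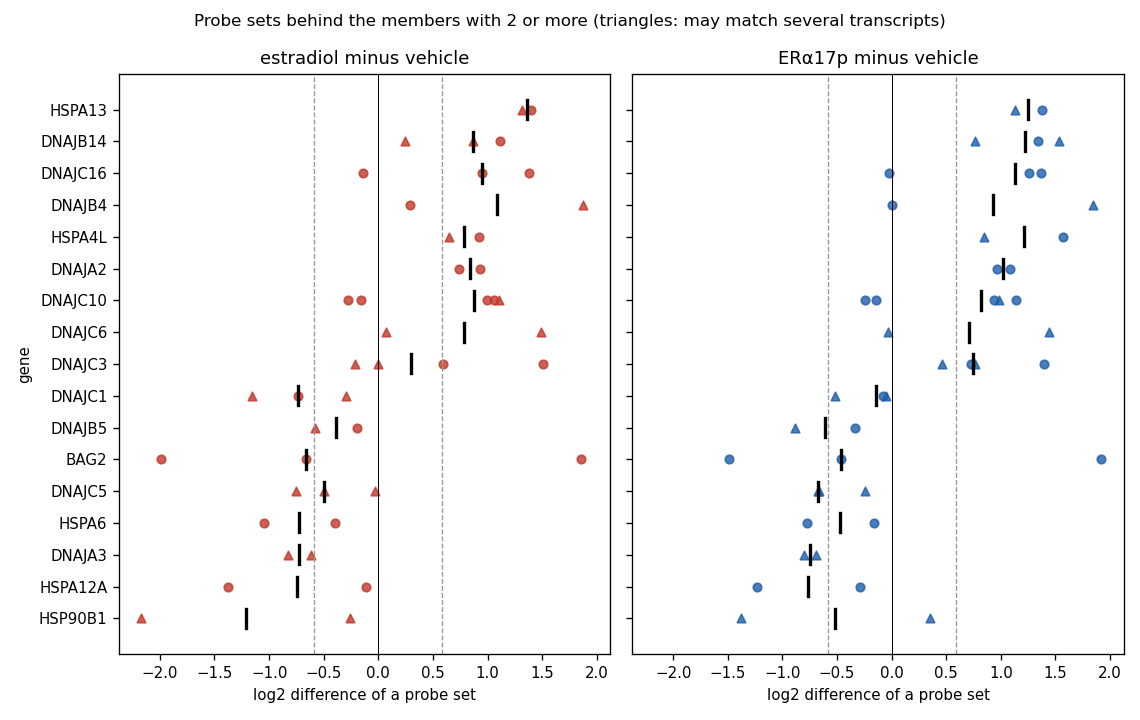
Log2 difference from vehicle (x axis) of each probe set behind the 17 called members with 2 or more probe sets (y axis), on the estradiol array (left) and the ERα17p array (right). Circles are probe sets for 1 transcript group, triangles may match several transcripts, black bars are the gene's difference and dashed lines mark 1.5-fold; the 2 probe sets of HSPA13 lie together at 1.32 and 1.40 on the left, and those of BAG2 range from -1.99 to 1.85.

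Probe sets of 1 gene are not replicates of a treatment, but they show how firmly a gene's value is read. In 28 of the 56 members with 2 or more probe sets, all of them differed from vehicle in 1 direction with estradiol (50.0%, beside 44.9% of all such genes), and in 27 with ERα17p (48.2%, beside 44.5%). Members that also passed 1.5-fold numbered 11 for estradiol (19.6%, beside 13.9%) and 10 for ERα17p (17.9%, beside 13.9%). The median over members of the SD between probe sets was 0.43 and 0.39, which is wider than the median size of a member's difference. BAG2, DNAJC21 and HSPA4 had probe sets past 1.5-fold in both directions with estradiol, and BAG2 and HSPB8 with ERα17p. DNAJC22, which was not called, had 1 of 3 probe sets at -1.69 and -2.39 and the others between -0.12 and -0.04.

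Several calls, not only those close to the threshold, ended when the probe sets were handled otherwise. After quantile normalisation the estradiol differences of HSPA6 (-0.50), DNAJA3 (-0.57), DNAJC6 (0.54) and DNAJC17 (-0.44) fell short of 1.5-fold, besides that of HSPA4L. So did the ERα17p differences of DNAJB8 (-0.38), DNAJC6 (0.45) and DNAJC5 (-0.58). With the mean of probe sets, those of BAG2 for estradiol (-0.27), DNAJC5 for ERα17p (-0.53) and DNAJC10 for estradiol (0.54) and ERα17p (0.53) fell short, as did that of DNAJC1 between the treated arrays (0.52). Without probe sets that may match several transcripts, DNAJC10 (0.39 and 0.37), DNAJB4 (0.29 and 0.01) and, for ERα17p, DNAJB5 (-0.33) were not called. With all probe sets DNAJC10 had been at 0.88 and 0.82 and DNAJB4 at 1.08 and 0.93. The called members HSPB1, HSPA2, HSP90B1, HSPE1, DNAJA3, DNAJC5 and DNAJC6 had no probe set left in that setting and could not be checked.

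Members of the endoplasmic reticulum had more calls on the high side than on the low side. Of 9 measured, 4 were called higher and 2 lower with estradiol, and 5 higher and 0 lower with ERα17p, with medians of 0.30 and 0.75. Over all genes 10.4% and 9.27% were called higher and 8.25% and 8.53% lower. The 5 were HSPA13, DNAJB14, DNAJC16, DNAJC10 and DNAJC3, described above. DNAJB11, a BiP co-chaperone of the lumen, was at -0.08 and 0.00, and DNAJB12 at 0.01 and -0.07. The list was made by hand and may leave out members of this compartment. With the mean of probe sets 3 were called higher and 2 lower with estradiol, and 4 higher and 0 lower with ERα17p. Without the farthest member the medians were 0.15 and 0.37, and against the deposited reference in place of vehicle they were 0.00 and 0.18. HSPA5 (BiP), the main HSP70 of this compartment and no member here, was at 0.06 and 0.10, while DNAJB9, also left out, was at 2.01 and 2.10. The promoters of HSPA13 and HSP90B1, the highest and the lowest of these genes with estradiol, are shown with the endoplasmic reticulum stress element, CCAAT and CCACG with 9 bases between them on either strand, in capitals in HSP90B1. This motif was chosen after the values were seen. It was found in 1 of 63 member genes, HSP90B1, at 2 places, and in 0.0916% of all genes.
HSP90B1, chr12:103930160-103930409, plus strand: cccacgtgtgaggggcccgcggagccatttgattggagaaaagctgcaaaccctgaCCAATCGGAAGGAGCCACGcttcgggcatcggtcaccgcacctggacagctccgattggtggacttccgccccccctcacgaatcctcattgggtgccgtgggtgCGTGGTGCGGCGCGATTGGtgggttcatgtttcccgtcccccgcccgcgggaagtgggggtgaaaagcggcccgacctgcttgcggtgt
HSPA13, chr21:14383147-14383396, minus strand: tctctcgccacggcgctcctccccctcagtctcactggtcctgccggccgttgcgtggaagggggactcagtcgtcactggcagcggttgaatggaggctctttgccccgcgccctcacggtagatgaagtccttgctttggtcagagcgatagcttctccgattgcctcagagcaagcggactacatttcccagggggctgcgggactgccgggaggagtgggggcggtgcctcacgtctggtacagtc

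Of 9 mitochondrial members, 0 were called higher and 1 lower with estradiol and 2 higher and 1 lower with ERα17p, with medians of 0.01 and 0.01. Of 12 members best known from testis, muscle or other narrow sets of tissues, 0 were called higher and 2 lower with each agent. These were HSPA2 and DNAJB8 in both cases, and the medians were -0.01 and 0.02. Beside both lists stand the shares of all genes, 10.4% higher and 8.25% lower for estradiol and 9.27% and 8.53% for ERα17p.

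Between the 2 treated arrays, a comparison without the vehicle array, the members differing at 1.5-fold were 2 of 71 (2.82%), beside 3.31% of all genes. Both were higher on the ERα17p array, beside 1.25% of all genes called higher and 2.06% called lower. HSP90B1 had -0.47 under estradiol and 0.23 under ERα17p, a difference of 0.70 with both probe sets higher, at 0.79 and 0.60. DNAJC1 had -0.38 and 0.21, a difference of 0.59 with its 3 probe sets at 0.25, 0.66 and 0.64. DNAJB8 (0.56), DNAJC3 (0.45) and DNAJC5G (0.42) came next, and HSPA4L was at 0.42. At the other end, HSPA1L was at -0.52, with 0.60 under estradiol and 0.08 under ERα17p, followed by HSPA2 (-0.33), HSPB2 (-0.32), DNAJC19 (-0.28) and DNAJB7 (-0.28). The median over the members was 0.03 and over all genes -0.01. In 24 of the 56 members with 2 or more probe sets all of these went 1 way (42.9%, beside 36.7% of all such genes), and in 2 they also passed 1.5-fold (3.57%, beside 1.06%). Of the 9 endoplasmic reticulum members 6 were above 0, with a median of 0.18. This was not particular to them. Of the 11 measured HSF1 targets 8 were above 0 (median 0.12), and of the 3 HSP110-type genes 3 (median 0.21). Of the 11 DNAJB genes 4 were above 0 and 7 below (median -0.11).

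**Figure D4:**
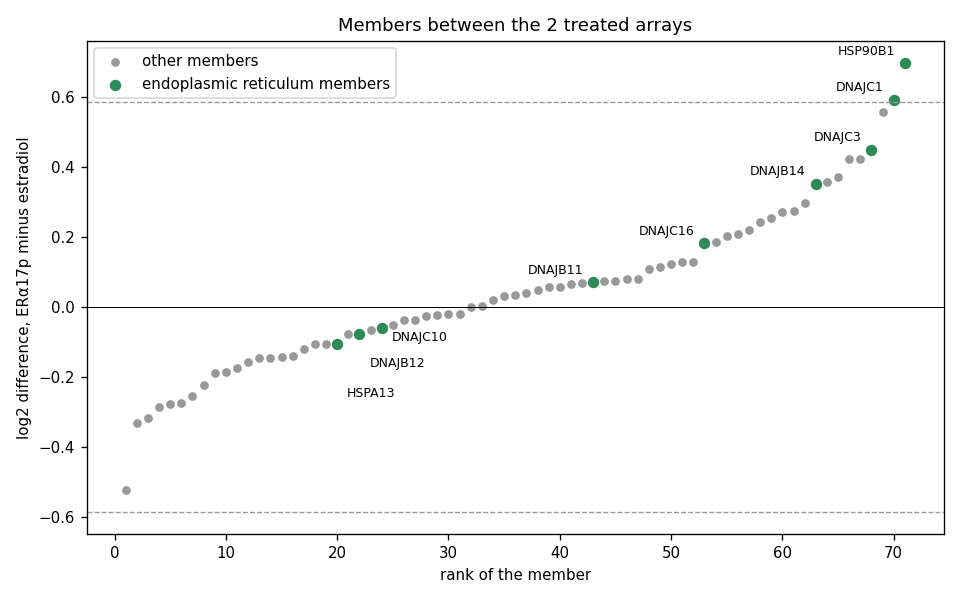
Log2 difference between the ERα17p and estradiol arrays (y axis) of the 71 members in rank order (x axis), with the 9 endoplasmic reticulum members in green and the 1.5-fold limits dashed. HSP90B1 at 0.70 and DNAJC1 at 0.59 are the points past the upper limit, and HSPA1L is the lowest at -0.52.

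Co-chaperones outside the name rule, which hand clients from HSP70 to HSP90 or regulate either, lay mostly below vehicle. Of 19 measured, 7 were called lower and 1 higher with estradiol (median -0.46), and 8 lower and 1 higher with ERα17p (median -0.40), beside 8.25% and 8.53% of all genes called lower. CDC37, which recruits protein kinases to HSP90, had 1.29 under vehicle, -0.08 under estradiol and -0.17 under ERα17p, with differences of -1.38 and -1.46 from 1 probe set. SGTA (-0.91 and -0.77), the myosin chaperone UNC45A (-0.86 and -0.86), STIP1, which bridges HSP70 and HSP90 (-0.81 and -0.82), the HSP70 nucleotide exchange factor HSPBP1 (-0.80 and -0.78) and the ubiquitin ligase STUB1, also called CHIP (-0.69 and -0.84), were lower with both agents. ST13, which stabilises the client-bound state of HSP70, was 1.27 and 1.22 higher, and its 3 probe sets ranged from 0.51 to 1.37.

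The count of lower co-chaperones depended on the kind of probe set. Without those that may match several transcripts, 12 genes were left, of which 1 was called lower and 2 higher with estradiol (median -0.04) and 2 lower and 1 higher with ERα17p (median -0.12). The 26 probe sets that may match several transcripts had medians of -0.61 and -0.52, and the 17 others 0.00 and 0.14. Over all probe sets with 1 symbol both kinds had medians between 0.00 and 0.01. Between the treated arrays 0 of the 19 co-chaperones were called.

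**Figure D5:**
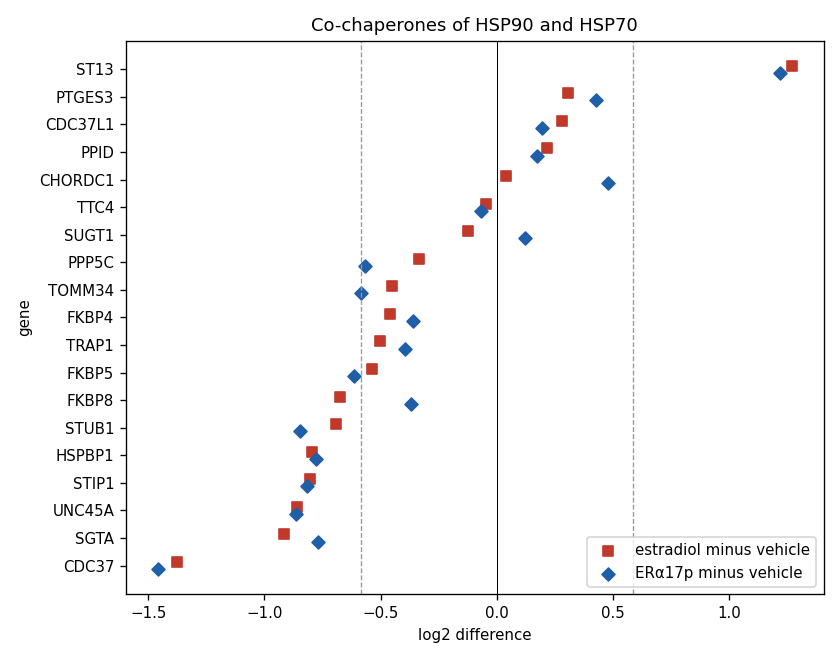
Log2 difference from vehicle (x axis) of 19 co-chaperones of HSP90 and HSP70 (y axis) on the estradiol array (squares) and the ERα17p array (diamonds), 1 point per array, with the 1.5-fold limits dashed. CDC37 is the lowest at -1.38 and -1.46 and ST13 the highest at 1.27 and 1.22.

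Of 4 heat shock factors and regulators measured, 0 were called against vehicle, and after quantile normalisation 1 was called higher for estradiol. HSF1, the main activator of the response, was at -0.19 with estradiol and 0.09 with ERα17p, HSF4 at -0.08 and 0.08, and HSBP1, which binds HSF1, at 0.30 and 0.35. The 2 probe sets of HSF1 were at -0.38 and -0.01 for estradiol and went apart for ERα17p, at -0.24 and 0.42. Those of HSBP1 went apart in both comparisons, at -0.21 and 0.80 for estradiol and at -0.19 and 0.89 for ERα17p. HSF2BP, a protein that binds HSF2 and acts in meiotic recombination, was at 0.45 and -0.16, and between the treated arrays it was called lower on the ERα17p array, at -0.62. Among 12 subunits of the TRiC and prefoldin chaperonins, which fold actin and tubulin, 2 were called higher and 0 lower with each agent. They were the prefoldin subunit VBP1 (1.26 and 1.23, from 1 probe set) and CCT2 (0.85 and 0.84). The 2 probe sets of CCT2 were unlike, at 0.29 and 1.41 for estradiol and at 0.26 and 1.42 for ERα17p. Over all genes 10.4% and 9.27% were called higher and 8.25% and 8.53% lower. Of 7 further exchange factors and J-domain proteins, the iron-sulphur cluster co-chaperone HSCB (-0.80 and -0.67) and the clathrin-uncoating kinase GAK (-0.60 and -0.74) were called lower, and 0 higher. The 3 probe sets of GAK ranged from -0.81 to 0.39 for estradiol and from -0.83 to -0.08 for ERα17p. Of 3 other small heat shock genes CRYAB was called, at 0.64 with ERα17p, and was at 0.41 with estradiol.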

How the data were processed

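RMA (background correction, quantile normalisation and summary into probe sets) made the values, per the submitters' processing notes. Its version, the base of the logarithm and the centring are not given in the sources used here, and the deposited values were read as log2, the scale RMA gives. Every array had a median of 0, and between 7.08% and 8.54% of its probe sets were exactly 0. Gene symbols came from the platform annotation: of 54675 probe sets 41097 had 1 symbol, 1801 several and 11777 none. All 71 member symbols matched RefSeq's genes (GRCh38.p14).

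Differences between gene values were taken with Python 3.11.15, numpy 2.4.6 and pandas 2.3.3, and the scripts were tested on simulated data. The number of arrays limits the precision. The members, lists and naming rule (up to 12 called members in each direction, all measured HSF1 targets, 5 at each end of the direct comparison, up to 4 genes per other list) were chosen with earlier results of these data known. Some genes are named beyond this rule, among them the co-chaperones STIP1 and HSPBP1 and members that were not called. Protein features were not analysed here. Alternatives were the mean of probe sets, leaving out probe sets that may match several transcripts, quantile normalisation, 2-fold calls, members with 2 or more probe sets, the median of probe set differences, and the reference in place of vehicle. RMA already includes quantile normalisation, so the one run here was a second pass, over the deposited centred values.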

Additional observations from a re-analysis of the deposited data

How the results depend on the processing

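No paired analysis was possible because each group has 1 array. The numbers of members called were 18, 19 and 2 for estradiol against vehicle, ERα17p against vehicle and ERα17p against estradiol. At 2-fold they were 6, 7 and 0 by construction. With the mean of probe sets 1 was called in the direct comparison, and after quantile normalisation 6. Without probe sets that may match several transcripts 11 of 56 members left were called for ERα17p. Against the deposited reference in place of vehicle, chosen after seeing the data, 1 and 0 were called. Among called differences HSPA4L changed sign to -0.023 for estradiol and DNAJB8 to 0.11 for ERα17p, and uncalled ones changed sign too, such as HSP90B1 (0.23) and HSPA6 (0.23) for ERα17p and DNAJB1 (0.10) for estradiol; the reference may hold all 3 arrays. The shares of all genes called are given here for the main setting and for 2-fold only. The counts of members called under the other settings are therefore not read as particular to the members. The member medians stayed between -0.02 and 0.10 under all alternatives run. Under all 4 settings that resummarise or rescale probe sets, 7 of 18, 9 of 19 and 0 of 2 calls held, counting a member with no probe set left as lost. The cause of these changes was not tested.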
